A study of Ulmus pumila with 3 samples.

Results

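The miR159 and miR319 families of Siberian elm (Ulmus pumila) roots are described here, taken as every name in the deposited miRNA tables whose family number is exactly miR159 or miR319. The rule uses names and no measured value. It gave 31 of the 309 names listed over all libraries, 22 of miR159 and 9 of miR319. Small RNA was sequenced from roots of 30-day-old wild-type seedlings grown without salt (control), given 50 mM NaCl for 6 h or given 200 mM NaCl for 24 h. With a single library for every condition, nothing is replicated and no test between conditions was made. Dose and time changed together, so their effects cannot be told apart. The labels do not say how many seedlings were pooled, and the tables hold no marker of root cells, so the labelled tissue was not checked.

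MicroRNAs (miRNAs) are short RNAs that guide the silencing of transcripts to which they pair. In Arabidopsis, miR159 guides cleavage of the mRNAs of GAMYB-like MYB transcription factors such as MYB33 and MYB65, and plants in which these factors escape it are stunted. In the same species miR319 guides cleavage of the mRNAs of CIN-type TCP factors such as TCP4, which restrain cell division in growing leaves, and TCP factors in turn activate genes of miR396 and miR164. The families are related in sequence and descent, and in Arabidopsis miR319 can also pair with some of the MYB targets of miR159. In bentgrass, overexpression of a rice miR319 gene has been linked to salt tolerance. No target transcript was measured in these tables.

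The sequences below, as deposited, are those of the most counted names and of the variants on which the results turn. Capitals mark the seed, bases 2 to 8 from the 5′ end.
miR159a: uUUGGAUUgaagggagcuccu
miR159b: uUUGGAUUgaagggagcucug
miR159c: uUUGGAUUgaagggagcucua
miR159d: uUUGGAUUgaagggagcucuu
miR159e: uUUGGAUUgaagggagcucuc
miR159g: cUUGGAUUgaagggagcuccu
miR159j: aUUGGAUUgaagggagcuccu
miR159m: cUUGGAUUgaagggagcucua
miR159o: uUUGGACUgaagggagcucua
miR319a: uUGGACUGaagggagcuccc
miR319b: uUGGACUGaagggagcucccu
miR319c: uUGGACUGaagggagcuccuu
miR319d: uGGACUGAagggagcuccuuc
miR319f: cUUGGACUgaagggagcucc
miR319g: uUGGACUGaagggagcucc
miR319i: uUGGGCUGaagggagcuccc

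Of the 31 names, 21 are 21 nt long, 8 are 20 nt and 2 are 19 nt. The letters GAAGGGAGCUC occur in 28 of them, and on the listed strand in 29 of all 309 names (9.39%), with none on the reverse complement. Positions below are counted from 1 at the 5′ end of miR159a, with the other names aligned to it without gaps and its own base written first. miR319b overlaps miR159a by 20 nt with 2 mismatches, U7C and U21C. The first of these, a C in place of U at base 7, is shared by all 9 miR319 names and by miR159o. GGAUUGAAGG occurs in 14 of the 22 miR159 names and in 0 of miR319, while GGACUGAAGG occurs in 8 of the 9 miR319 names and in miR159o alone among miR159. The name miR319i lacks it through A6G. The authors' tables list miR319a to miR319h under the family heading of miR159 and only miR319i under that of miR319.

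Grouped by seed, 14 names of miR159 share UUGGAUU and held 90.9% of the members' counts in control roots, 89.4% at 50 mM and 90.1% at 200 mM. The names miR319a, miR319b, miR319c, miR319e, miR319g and miR319h share UGGACUG, with 8.10%, 9.66% and 9.06% in the same order. miR159o and miR319f, from different families, share UUGGACU and held 0.212%, 0.215% and 0.140%. miR319d starts 1 base later than miR319a and so has a seed of its own, at 0.487%, 0.473% and 0.347%. Names that begin with U held 98.4%, 98.5% and 98.5% of the members' counts. A 5′ U is known to favour loading into AGO1, the main slicer of plant miRNAs.

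Levels are given as RPM, the reads of a name per 1000000 counts of all names in the same table, without correction for length. The tables summed to 509280 counts in control roots, 449522 at 50 mM and 545587 at 200 mM, so 1 read was worth 1.96, 2.22 and 1.83 RPM. The number of reads sequenced is not known, and a read could be counted under several similar names, so sums over names can hold it more than once. Intervals are exact 95% intervals and cover counting error within a library only. Those of shares treat each count as a separate read, so they are too narrow where a read was counted under several names.

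miR159 and miR319 together took 44.7% of the control table (interval 44.6% to 44.9%), 45.8% at 50 mM (interval 45.6% to 45.9%) and 55.7% at 200 mM (interval 55.6% to 55.9%). miR159 alone took 40.8%, 41.1% and 50.4%. miR319 took 3.92% (3.86% to 3.97%), 4.72% (4.66% to 4.78%) and 5.31% (5.25% to 5.37%). The 200 mM library thus held the largest share of both families among the 3 libraries. In bulk roots, a change in the number of cells of a type and a change in RNA per cell cannot be told apart. For scale, miR166, whose known targets are HD-ZIP III factors, took 30.5%, 26.9% and 22.5%, or 15.8%, 12.8% and 10.03% of the joined table described next. Names of overlapping sequence and near-equal counts, in both families and outside them, were then joined. The overlap had to be at least 16 nt with at most 2 mismatches, directly or against the reverse complement of the other name. Counts had to lie within 5% or 3 reads in all libraries, and names linked through a common neighbour were joined too. The 31 names became 23, and their shares of the joined table were 57.6%, 59.9% and 68.8%.

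miR159a was the most counted of all names in every library, with 80704 counts in control roots, 81266 at 50 mM and 130976 at 200 mM. miR159b, which differs from it by C20U and U21G, was second in every library, with 47505, 45406 and 61226 counts. miR159c, with C20U and U21A, had 25716, 18714 and 26560 counts. In RPM, miR159a and miR159b were higher in both salt libraries than in the control library, while miR159c was lowest at 50 mM. The last base alone separates miR159c, miR159d and miR159e, whose counts were near-equal in each library. miR159d had 98.3%, 97.1% and 97.4% of the count of miR159c, and miR159e had 95.9%, 94.5% and 95.1%. These 3 names were joined as 1 measurement, miR159c and miR159e through miR159d, since at 50 mM the 2 alone differ by more than 5%.

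The other miR159 names were far less counted. miR159f, miR159g, miR159h and miR159i start with C or lack the first base of miR159a, and had between 626 and 639 counts in control roots, 540 to 549 at 50 mM and 890 to 902 at 200 mM. miR159j, miR159k and miR159l carry U1A and had 294 to 298, 235 to 244 and 393 to 401 counts. Both sets were joined into 1 measurement each. miR159m, with U1C, C20U and U21A, had 221, 151 and 203 counts, and miR159n-3p, 1 base shorter, had 206, 134 and 188. miR159o had 104, 89 and 92 counts, and miR159p, which carries G12A, had 18, 21 and 22.

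The remaining 8 names, miR159n-5p, miR159q to miR159u, miR319h and miR319i, stayed under 20 counts in every library and were not compared. miR159n-5p, whose sequence pairs with that of miR159n-3p over 18 nt with 2 mismatches, had 1 count in the control library and was not listed at 50 mM or 200 mM. It is the single name of the opposite hairpin arm. miR159u was not listed in the control table and had 5 counts at 50 mM and 2 at 200 mM. The names with U7G (miR159q, miR159s, miR159t and miR159u) summed to 13, 18 and 21 counts. miR319h, with A15U, had 4, 5 and 13 counts, and miR319i had 16, 17 and 16.

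In miR319, miR319a had 8194 counts in control roots, 9046 at 50 mM and 12886 at 200 mM. miR319b, which is miR319a with 1 more base at the 3′ end, had 7659, 8526 and 12112, which is 93.5%, 94.3% and 93.99% of miR319a, just outside the joining limit. Both were higher in each salt library than in the control library. miR319c had 1275, 1136 and 1343 counts, miR319d had 1109, 974 and 1054, and miR319e had 967, 828 and 894. In RPM miR319c lay within 2462 to 2527 in the 3 libraries. miR319f had 379, 354 and 335 counts and miR319g 346, 328 and 302. The sequence of miR319g lies whole within those of miR319a, miR319b, miR319c, miR319e and miR319f, yet its count was 4.22%, 3.63% and 2.34% of that of miR319a, so reads of the longer names were not all counted under it.

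**Figure D1:**
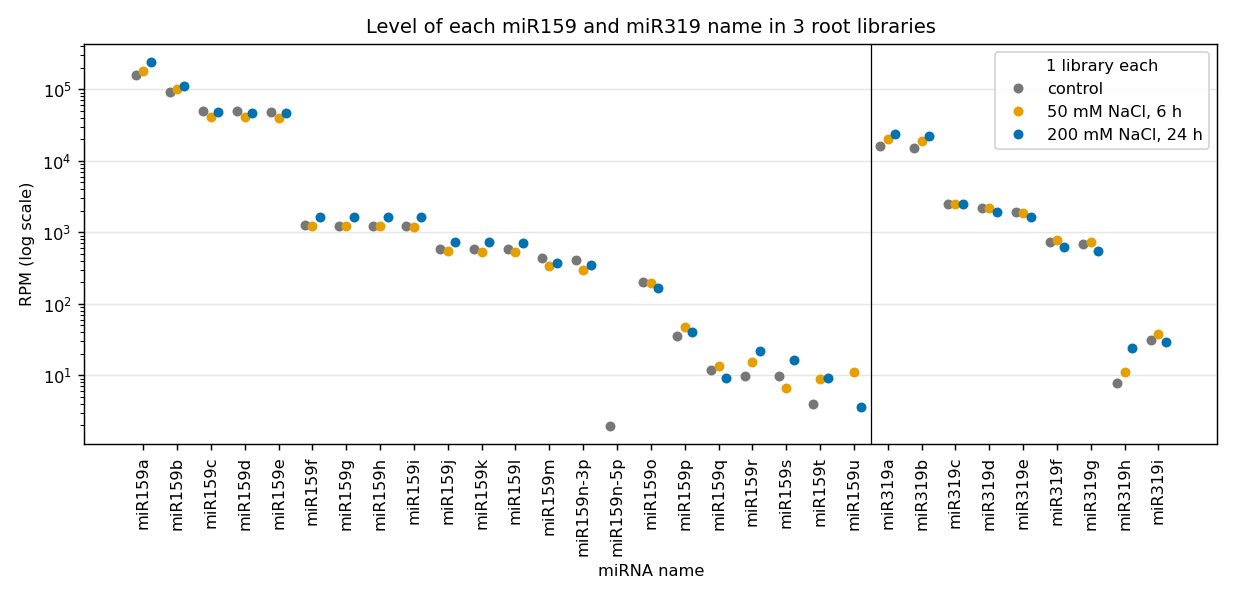
Level in RPM (log axis) of the 31 miR159 and miR319 names, with 1 point for each of the 3 libraries and no point where a name was not listed. miR159a to miR159e lie above all other names in each library, with miR319a and miR319b next, and most points of 1 name lie close together.

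At 50 mM NaCl for 6 h, the leading names of both families were higher than in the control library, while miR159c to miR159e were lower. miR159a stood at 180783 RPM at 50 mM against 158467 in the control library, a ratio of 1.14 (1.13 to 1.15). miR159b had a ratio of 1.08 (1.07 to 1.10). miR159c stood at 41631 RPM against 50495, a ratio of 0.824 (0.809 to 0.840), with miR159d at 0.814 and miR159e at 0.813. The summed miR159 had a ratio of 1.01 (0.996 to 1.02). miR319a stood at 20124 RPM against 16089, a ratio of 1.25 (1.21 to 1.29), and miR319b at 1.26 (1.22 to 1.30). The summed miR319 had 1.20 (1.17 to 1.24). miR159m and miR159n-3p had ratios of 0.774 (0.625 to 0.956) and 0.737 (0.588 to 0.920). The other 14 compared members, miR319c to miR319g among them, had intervals that include 1.

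A member was compared if both tables listed it and 1 of them gave it 20 counts or more, which left 23 of the 31. It was called higher or lower at a ratio of at least 2 whose interval excludes 1. Joined, the 23 are 16 measurements, so counts of members and of all names hold some measurements more than once. No member was called at 50 mM, against 4.94% of the 162 names compared, nor at a ratio of at least 1.5, against 16% of them. With the interval alone as the measure, 4 members were higher and 5 lower, where 23.5% of all compared names were higher and 27.8% lower. These 4 and 5 were as many with TMM factors, median-of-ratios factors and totals that left out both families. Of all 23, 8 had a ratio above 1, against 15 with TMM or median-of-ratios factors and 10 with the totals. Their median ratio was 0.976, against 0.947 over all compared names.

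At 200 mM NaCl for 24 h, the most counted names of both families were again higher than in the control library. miR159a stood at 240064 RPM at 200 mM against 158467 in the control library, a ratio of 1.51 (1.502 to 1.53). miR319a stood at 23619 RPM against 16089, a ratio of 1.47 (1.43 to 1.51), and miR319b at 1.48 (1.43 to 1.52). miR159b had a smaller ratio, 1.20 (1.19 to 1.22). miR159f to miR159i had ratios from 1.32 to 1.33, and miR159j to miR159l from 1.24 to 1.26, each with an interval above 1.

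Other names were lower at 200 mM than in the control library when scaled by the sum of all names. miR159c had a ratio of 0.964 (0.948 to 0.981), with miR159d at 0.955 and miR159e at 0.956. Among miR319, miR319d had 0.887 (0.815 to 0.966), miR319e 0.863 (0.787 to 0.946), miR319f 0.825 (0.710 to 0.958) and miR319g 0.815 (0.696 to 0.953). These directions turned under other scalings of the libraries: with TMM factors miR159c had 1.22 and miR319g 1.03, and all 23 compared members were above 1 with TMM factors, with median-of-ratios factors and with totals that left out both families. Over all compared names the median was −0.40 on the log2 scale, raised by 0.34, 0.36 and 0.32 under them, and all 23 members lay above that median. In sum, miR159 had a ratio of 1.24 (1.23 to 1.25) and miR319 of 1.35 (1.32 to 1.39). The median over the 7 compared miR319 names, 0.887, lay on the other side of 1 from that sum, which miR319a and miR319b dominate, and with TMM factors it was above 1 (log2 0.16).

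No member was called at 200 mM, against 20.2% of the 168 names compared. Most of the names called were lower, 28 against 6 higher. With the interval alone, 11 members were higher, where 17.3% of all compared names were, and 7 were lower, where 54.2% were. Among the 11, miR159f to miR159i are 1 measurement and miR159j to miR159l another, and among the 7, miR159c to miR159e are 1. The members' median ratio was 1.14, against 0.756 over all compared names. At a ratio of at least 1.5, with the sum of all names, miR159a was the 1 member called, against 34.5% of all compared names. With TMM factors miR159a had 1.91, and miR159b (1.52), miR319a (1.85) and others exceeded 1.5 as well.

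**Figure D2:**
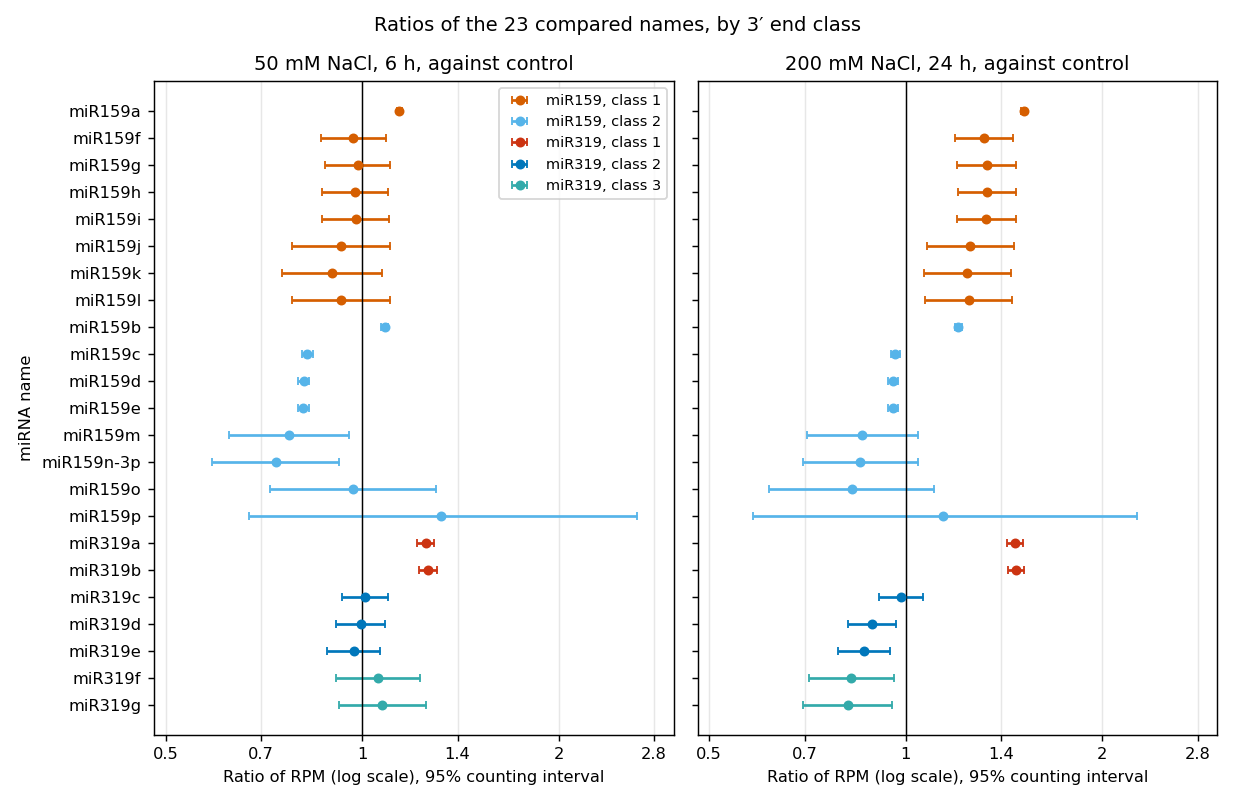
Ratio of RPM (log axis) of each of the 23 compared names at 50 mM (left) and at 200 mM (right) against the control library, with exact 95% intervals for counting error, coloured by 3′ end class. At 200 mM the 8 class 1 names of miR159 and both of miR319 lie right of 1, and miR159b and miR159p are the class 2 names to the right of 1.

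Between the salt libraries, miR159a stood at 240064 RPM at 200 mM against 180783 at 50 mM, a ratio of 1.33 (1.32 to 1.34), and miR319a at 1.17 (1.14 to 1.21). miR159b had 1.11 (1.10 to 1.12), and miR159c to miR159e had 1.17 to 1.18. miR159f to miR159l had 1.34 to 1.38. miR319d, miR319e, miR319f and miR319g had ratios of 0.892, 0.890, 0.780 and 0.759, with intervals below 1. Of these only miR319f and miR319g stayed below 1 with TMM, median-of-ratios or family-free totals, and their intervals then included 1. With TMM factors they had 0.946 (0.812 to 1.10) and 0.920 (0.784 to 1.08). No member was called, against 25.2% of the 159 names compared, where 30 names were lower and 10 higher. With the sum of all names none was called at a ratio of at least 1.5 either, against 35.8%. With TMM factors miR159a (1.61) and miR159f to miR159l exceeded 1.5. With the interval alone 14 members were higher and 4 lower, where 24.5% and 44% of all compared names were. The summed ratio was 1.23 (1.22 to 1.24) for miR159 and 1.12 (1.09 to 1.16) for miR319.

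Within each family, the ratios parted by 1 base near the 3′ end. This grouping was chosen after the values were seen, so it is a description with no test, and names within a class can share reads. Of miR159, 10 names have C at base 20 (class 1, with miR159a, miR159f to miR159l, miR159q and miR159t) and 11 have U there (class 2). At 200 mM against the control library, the 8 compared class 1 names had ratios from 1.24 to 1.51. The 8 of class 2 had ratios from 0.826 to 1.20, with no overlap of these values. Joined, these names are 3 and 6 measurements. Intervals of the classes did overlap. The interval of miR159b, 1.19 to 1.22, lay within those of miR159j to miR159l, such as 1.07 to 1.45 for miR159k. At 50 mM the ranges overlapped, from 0.899 to 1.14 in class 1 and from 0.737 to 1.32 in class 2, where miR159p was highest on 21 counts against 18. miR159b, at 1.08 on 45406 against 47505 counts, also lay above every class 1 name but miR159a. Class 1 held 49.3% of the miR159 counts at 200 mM and 45.6% at 50 mM, against 40.5% in the control library. These shares count miR159c, miR159d and miR159e of class 2 separately. With near-equal names joined, miR159a of class 1 alone held 59.4% at 200 mM, 55.4% at 50 mM and 51.9% in the control library.

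Ratios between names within a library do not depend on its scaling. They restate the ratios above, from which the classes were chosen, and add no support to them. The count of miR159a was 4.93 times that of miR159c at 200 mM and 4.34 times at 50 mM, against 3.14 times in the control library. That is a double ratio of 1.57 (1.54 to 1.60) at 200 mM and 1.38 (1.35 to 1.41) at 50 mM against control. miR159i and miR159n-3p, both starting with C and 20 nt long, differ by this base alone. Their count ratio was 4.73 at 200 mM and 4.03 at 50 mM, against 3.04 in the control library, a double ratio of 1.56 (1.24 to 1.96) and 1.33 (1.03 to 1.71). miR159b and miR159c both have U at base 20, and yet their double ratio was 1.25 (1.22 to 1.27) at 200 mM and 1.31 (1.28 to 1.34) at 50 mM, so names within a class differed as well.

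In miR319 the names parted at base 21. miR319a and miR319b, with C there, had ratios of 1.47 and 1.48 at 200 mM against control. miR319c, miR319d and miR319e, with U there, had 0.863 to 0.983, and miR319f and miR319g, which end at base 20, had 0.825 and 0.815. At 50 mM the values were 1.25 and 1.26 for the first pair, 0.970 to 1.01 for the next 3 names and 1.06 and 1.07 for the last pair. The count of miR319a was 9.59 times that of miR319c at 200 mM and 7.96 times at 50 mM, against 6.43 times in the control library, double ratios of 1.49 (1.37 to 1.62) and 1.24 (1.14 to 1.35). miR319h and miR319i also have C at base 21 and were too low to compare.

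The make-up of both families moved accordingly. miR159a made up 38.8% of the miR159 counts in control roots (interval 38.6% to 39.0%), 44.0% at 50 mM (interval 43.8% to 44.3%) and 47.6% at 200 mM (47.4% to 47.8%). miR159c to miR159e together made up 36.4%, 29.6% and 28.2%. miR159b stayed within 22.2% to 24.6%. With near-equal names joined, miR159a made up 51.9%, 55.4% and 59.4%. miR319a and miR319b made up 79.5% of the miR319 counts in control roots (interval 78.9% to 80.0%), 82.8% at 50 mM (interval 82.3% to 83.3%) and 86.3% at 200 mM (85.9% to 86.7%). miR319c to miR319e made up 16.8%, 13.8% and 11.4%.

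**Figure D3:**
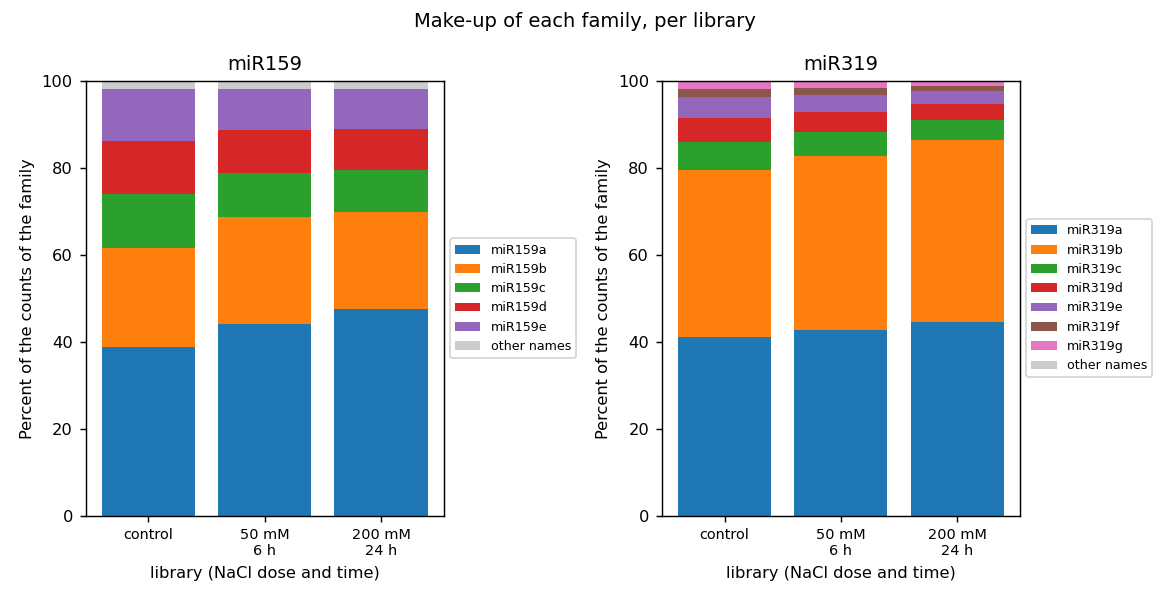
Share in percent of the counts of miR159 (left) and miR319 (right) held by each of their main names in the 3 libraries. The miR159a segment grows across the libraries to 47.6% at 200 mM, and the joint segment of miR319a and miR319b to 86.3%, while the segments of miR159c to miR159e and of miR319c to miR319e shrink.

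The balance of the families depended on how names were counted. Per 100 counts of miR159 there were 9.60 of miR319 in control roots, 11.5 at 50 mM and 10.5 at 200 mM. The ratio of miR319 to miR159 was thus 1.20-fold (1.16 to 1.24) that of the control library at 50 mM and 1.10-fold (1.06 to 1.13) at 200 mM. With near-equal names joined, which merged names of miR159 but none of miR319, the values were 1.13 and 1.02. For miR319a over miR159a they were 1.10 (1.06 to 1.13) at 50 mM and 0.969 (0.941 to 0.998) at 200 mM, so at 200 mM the direction turned.

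**Figure D4:**
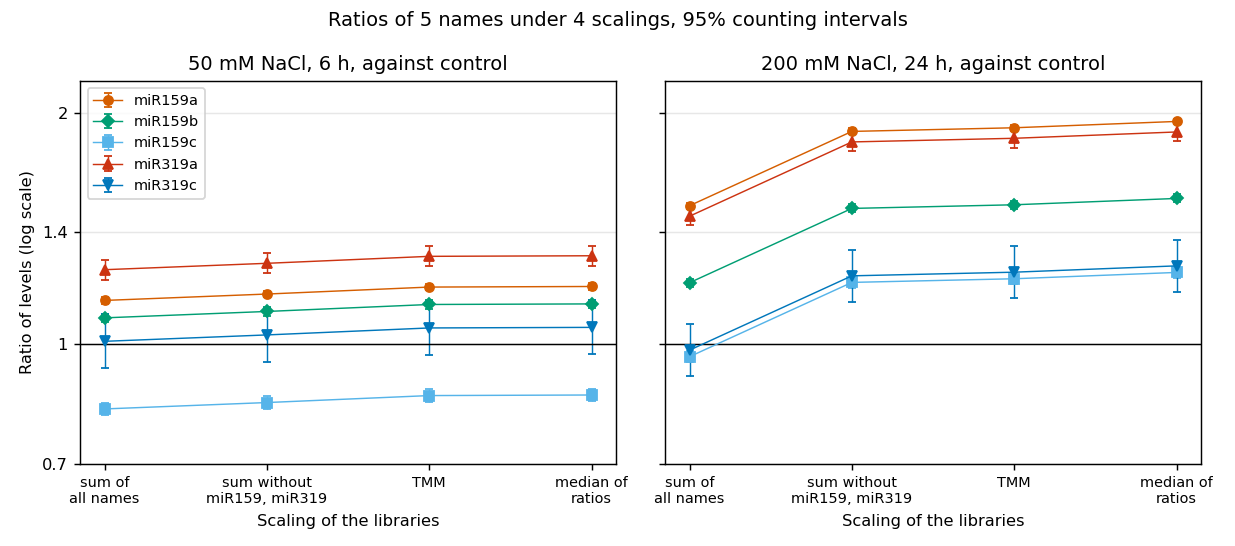
Ratio of levels (log axis) of 5 names at 50 mM (left) and at 200 mM (right) against the control library under 4 scalings of the libraries, with 95% counting intervals. At 200 mM all 5 names move up together under the other scalings, with miR159c passing to the other side of 1 (0.964 with the sum of all counts and 1.22 with TMM factors). Each scaling moves all names by 1 common factor, so their order is fixed.

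Other families of the same network were described from a list of families chosen with earlier results of these data known. miR858, which in Arabidopsis also targets MYB factors, had 4 of its 5 names compared and none called in either salt library. With near-equal names joined, the 4 are 2 measurements. The median ratio was 0.981 at 50 mM and 0.903 at 200 mM against control, and both turned above 1 with TMM and median-of-ratios factors (log2 0.03 and 0.03 at 50 mM, 0.19 and 0.22 at 200 mM). The 8 names of miR396, which targets growth-regulating factors, were all compared but are 2 measurements once joined. None was called, where 4.94% of all compared names were called at 50 mM and 20.2% at 200 mM, and the medians were 0.890 and 0.645. Of the 8 names of miR164, which targets NAC factors, none was called at 50 mM and 7 were lower at 200 mM, with medians of 0.6999 and 0.242. Joined, the 8 names are 3 measurements and the 7 are 2 of them, on 27 to 33 counts in control roots. Of the 19 names of miR156, which targets SPL factors and is activated by MYB33 in Arabidopsis, 5 were compared. The 1 called lower in each salt library, miR156e, had 28, 10 and 13 counts, and the shares over all names were 4.94% and 20.2%. The miR156 medians were 0.860 and 0.693, against 0.947 and 0.756 over all compared names. With TMM factors the log2 medians at 200 mM were −0.30 for miR396, −1.71 for miR164 and −0.19 for miR156, against −0.07 over all compared names. No listed name carries the number miR828, another family that targets MYB factors.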

How the data were processed

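Small RNA from 3 root samples was sequenced, 1 library per condition, grouped by each sample's description. Trizol RNA went into NEBNext small RNA libraries for Illumina, per the labels' protocols. The sources used here name no aligner, mismatch limit or reference. For each miRNA name the authors deposited a whole-number read count, and a TPM that equals this count per 1000000 counts of its table and is called RPM here. Names missing from a table count as 0.

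Ratios between libraries have exact conditional binomial 95% intervals (Clopper-Pearson), levels exact Poisson ones, shares exact binomial ones, and double ratios the exact conditional interval of the odds ratio. The interval of a summed family ratio is as wide, in proportion, as that of its most counted name. Shares of summed names were not widened in this way. Amplified reads are not independent molecules, so intervals cover counting error only. edgeR 4.0.16 (R 4.3.3) gave the TMM factors. Median-of-ratios factors were computed over the 244 names listed in all libraries. Other steps used Python 3.11.15 and scipy 1.17.1, tested on simulated counts. The members and lists were chosen with earlier results of these data known. Names with at least 1000 counts in a library are given in full. Alternatives were other scalings, joined names, other count minimums and a lower fold. No genome was used, so no coordinates are given.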

Additional observations from a re-analysis of the deposited data

How the results depend on the processing

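No member passed the 2-fold rule in any comparison under any scaling, with joined names or with count minimums of 50 or none. Each setting was changed alone. At 200 mM against control miR159a came near the rule, at 1.91 with TMM factors and 1.95 (1.93 to 1.97) with median-of-ratios factors. At 1.5-fold, with the sum of all names, 1 member passed at 200 mM against control. This lower fold depended on the scaling. With TMM factors at 200 mM against control, miR159b (1.52), miR159f to miR159l (1.57 to 1.68), miR319a (1.85) and miR319b (1.86) exceeded it too. Between the salt libraries, miR159a (1.61) and miR159f to miR159l (1.63 to 1.68) did so with TMM factors. All these intervals lay above 1. No paired analysis was possible because each condition has 1 library. The summed miR159 ratio of 1.01 at 50 mM against control became 1.05 with TMM factors, 1.05 with median-of-ratios factors, 1.03 with totals that left out both families, 1.03 with near-equal names joined, 1.07 with joining but unchanged totals, and 1.14 for its most counted name alone. At 200 mM against control, 1.24 became 1.56, 1.59, 1.54, 1.19, 1.32 and 1.51 in the same order. At 200 mM against 50 mM, 1.23 became 1.49, 1.52, 1.51, 1.16, 1.24 and 1.33. For miR319 the value at 50 mM against control, 1.20, became 1.25 with TMM factors, 1.26 with median-of-ratios factors, 1.16 with joined names and 1.25 for its most counted name. At 200 mM against control 1.35 became 1.71, 1.74, 1.69 without both families in the totals, 1.22 with joined names and 1.47 for the most counted name. At 200 mM against 50 mM 1.12 became 1.36, 1.39, 1.38, 1.05 and 1.17. No miR319 name was joined to another, so the miR319 values with joined names moved through the joined totals alone. With joining but unchanged totals they stayed at 1.20, 1.35 and 1.12. The ratio of miR319 to miR159 became 1.13 with joined names and 1.10 with the most counted names at 50 mM against control, 1.02 and 0.969 at 200 mM against control, and for the most counted names 0.884, against 0.915 as summed, between the salt libraries. The 0.969 lies on the other side of 1 from the summed value. At 200 mM against control, single names below 1 with the sum of all counts also turned: miR159c had 1.22 with TMM factors, miR159d 1.21, miR159e 1.21 and miR319d 1.12, each with an interval above 1. Joining with unchanged totals was chosen after seeing the data. With 1 library per condition, the spread between seedlings is unknown.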

Other observations

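A name outside both families by its number carries the miR159 sequence. The 3′ arm of the hairpin that the authors list as new number 2, written here as new-2-3p (uUUGGAUUgaagggagcucc), is miR159a without its last base, and the 1 name outside both families that holds GGAUUGAAGG. It had 80 counts in control roots, 90 at 50 mM and 166 at 200 mM. Its ratio against control was 1.94 (1.47 to 2.56) at 200 mM and 1.27 (0.933 to 1.74) at 50 mM. Scaled by TMM, the 200 mM ratio rose to 2.45, and scaled by median-of-ratios to 2.49. Both values exceed 2, so the size of this ratio relative to the 2-fold limit depended on the scaling. Since new-2-3p is not a member by its number, the statement that no member passed the 2-fold rule does not cover it. Relative to miR159a, its double ratio at 200 mM against control was 1.28 (0.973 to 1.69). The 5′ arm, new-2-5p (aGCUCCUUuugaucuaaaacc), pairs with it over 18 nt with 4 mismatches and had 38, 39 and 52 counts. That is 47.5%, 43.3% and 31.3% of the 3′ arm, and the double ratio of the 3′ over the 5′ arm at 200 mM against control, 1.52, had an interval that includes 1 (0.892 to 2.56).

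miR156n (aUUGGAGUgaagggagcu) lies whole within miR159q and carries the U7G of that group, so its letters are those of a miR159 name though its number is miR156. It had 2, 4 and 5 counts.

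Of the 27 names outside both families with at least 1000 counts in a library, miR162b and miR162a-3p had the pair of ratios to control nearest to those of miR159a and of miR319a. miR162b is miR162a-3p without its last base, and their counts were near-equal (4162, 4377 and 6015 for miR162b, 4180, 4388 and 6029 for miR162a-3p), so they are 1 measurement. miR162b stood at 1.19 at 50 mM and 1.35 at 200 mM, at a distance on the log2 scale of 0.18 from miR159a and 0.14 from miR319a. The next name, miR858a, was at 0.64 and 0.58. Likeness over 3 libraries that share 1 control is a description only.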
